A study of Homo sapiens with 7 samples.

Results

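The stretch of chromosome 1 around the genes BOLA1 and SF3B4, in band q21, was examined across 7 HiChIP loop lists. Members were all loops on chromosome 1 with at least 1 anchor midpoint in chr1:149750000-150300000 (hg19, as named in the submitters' processing notes). They numbered 121 of 135475 loops in all 7 lists, and joined 87 distinct pairs of anchors. The region was chosen by its measured values: it surrounds a strong ZNF143 loop listed after CTCF depletion and not before. What the 2 CTCF-depletion lists show here is therefore a description of a selected place, and nothing is supported with it.

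In HiChIP, DNA ends that neighbour each other in fixed chromatin are ligated, an antibody enriches the ligated fragments, and paired reads show which places were in contact. All cells were HEC-1-B, an established human uterine adenocarcinoma line, or lines made from it, with 1 library per group. Wild-type cells were profiled with antibodies against ZNF143, CTCF and RAD21, and ZNF143KO cells, which lack ZNF143, with those against CTCF and RAD21. CTCF-AID cells were profiled with the ZNF143 antibody after 0 h and after 24 h of auxin (IAA). In these cells CTCF carries a degron tag, and the protein TiR1 lets auxin trigger its breakdown, so the cells of the 0 h group carry the tag as well. How many clones stood behind each derived line is not given in the sources used here. A ZNF143 library of ZNF143KO cells and a CTCF library after auxin were not analysed here, so neither removal was checked.

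CTCF is a zinc-finger protein that halts the cohesin ring, of which RAD21 is a subunit, as the ring extrudes DNA, and loops between CTCF sites result. ZNF143 is another zinc-finger protein, which binds mainly at promoters of widely expressed genes. Other genes of the region, among them histone genes of the HIST2 cluster and FCGR1A, are left out of the following list. In gene order the list starts with BOLA1, a mitochondrial protein of iron-sulfur cluster handling. Next are SV2A, a synaptic vesicle glycoprotein, and SF3B4, a subunit of the spliceosome's SF3b complex. These are followed by MTMR11, a myotubularin-related protein, and OTUD7B, a deubiquitinase. Further along lie VPS45, which acts in vesicle fusion, PLEKHO1, ANP32E, a histone chaperone, CA14, a carbonic anhydrase, and APH1A, a subunit of gamma-secretase. C1orf54, the circadian repressor CIART, the mitochondrial ribosomal protein gene MRPS21 and the splicing factor gene PRPF3 close the row. No annotation of hg19 was used, so no gene or promoter was assigned to an anchor, and the share of loops between promoters was not computed. Anchors are named by their midpoint in Mb. The anchors of the strong loop are called the BOLA1-side anchor (149.871 Mb) and the SF3B4-side anchor (149.900 Mb). These names follow the label of the region, BOLA1 to SF3B4, and place neither gene at an anchor.

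RefSeq promoter windows of GRCh38.p14, a build other than that of the loops, were matched by symbol for 12 of the 14 genes, as 17 windows of 250 bases before to 50 bases after a start site. They are shown because ZNF143 is known for an element in promoters, of which ACTACANNTCCC is the first part and TCCCANNATGC the second, the TCCC of both overlapping. On both strands, ACTACANNTCCC was found in 3 of the 17 windows, those of BOLA1, VPS45 and APH1A, and in 1.75% of the 35116 windows of the whole table. TCCCANNATGC was in 0 of the 17 and in 0.851% of all windows. The CTCF core CCANNAGNNGGC was in 1 of the 17, that of MRPS21, and in 2.41% of all. The motifs were picked after the promoters had been read, and a match describes letters, not a bound site. Numbers of the GRCh38 windows are not to be compared with those of the hg19 anchors. Those of the BOLA1 window fall within the hg19 numbers of the SF3B4-side anchor, which does not place BOLA1 there. The 250 bases before the start site of the 3 promoters with a match, and of SF3B4 without one, read 5′ to 3′ on the strand of the gene, with ACTACANNTCCC in capitals:
BOLA1, GRCh38 chr1:149899318-149899567, + strand: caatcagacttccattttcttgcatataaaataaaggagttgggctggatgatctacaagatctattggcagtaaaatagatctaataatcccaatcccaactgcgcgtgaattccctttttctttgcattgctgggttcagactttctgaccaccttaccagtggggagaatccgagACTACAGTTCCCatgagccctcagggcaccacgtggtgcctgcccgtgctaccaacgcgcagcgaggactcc
VPS45, GRCh38 chr1:150067526-150067775, + strand: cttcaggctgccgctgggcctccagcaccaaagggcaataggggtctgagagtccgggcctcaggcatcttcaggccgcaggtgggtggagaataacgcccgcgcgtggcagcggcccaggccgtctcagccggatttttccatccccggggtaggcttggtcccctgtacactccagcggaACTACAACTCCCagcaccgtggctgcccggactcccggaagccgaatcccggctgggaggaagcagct
APH1A, GRCh38 chr1:150269017-150269266, - strand: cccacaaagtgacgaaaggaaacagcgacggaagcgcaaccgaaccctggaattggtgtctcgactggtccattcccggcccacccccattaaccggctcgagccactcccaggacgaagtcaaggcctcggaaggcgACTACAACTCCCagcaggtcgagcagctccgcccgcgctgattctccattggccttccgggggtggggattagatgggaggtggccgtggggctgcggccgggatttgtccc
SF3B4, GRCh38 chr1:149927804-149928053, - strand: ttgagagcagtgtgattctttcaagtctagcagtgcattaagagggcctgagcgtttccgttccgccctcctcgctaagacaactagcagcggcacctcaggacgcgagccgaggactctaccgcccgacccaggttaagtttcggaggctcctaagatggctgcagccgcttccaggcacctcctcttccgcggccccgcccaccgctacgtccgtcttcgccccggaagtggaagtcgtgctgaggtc

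The match started 72 bases before the start site in BOLA1, 68 in VPS45 and 112 in APH1A. VPS45 and APH1A hold the same 12 letters, ACTACAACTCCC, and BOLA1 holds ACTACAGTTCCC. The share of G and C over the 300 bases was 50.3% in BOLA1 and 61.7% in SF3B4. Of the other 3 member genes, SV2A had 37.3% and OTUD7B 69%, and MTMR11 had 52% and 53.7% in its 2 windows, with none of the 3 motifs in any of them. These sequences come from the reference and say nothing of which protein sat there in these cells.

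The number of listed loops in the region differed between libraries. The wild-type lists held 9 ZNF143 loops (summed count 30), 11 CTCF loops (43) and 7 RAD21 loops (24). In ZNF143KO cells there were 6 CTCF loops (12) and 3 RAD21 loops (6). The CTCF-AID lists held 55 ZNF143 loops (154) at 0 h and 30 (191) at 24 h. Listed totals over the genome ran from 33460 to 143119, and only loops of at least 2 counts with anchors 20 to 2000 kb apart are listed. A missing loop can lie under these limits, lack a called anchor or have been filtered in a way that is not given, and is not shown to be absent. Loops of exactly 2 counts made up 44 of the 55 loops at 0 h, 16 of the 30 at 24 h, and all of those in ZNF143KO cells. Intervals below are exact 95% intervals (Poisson for a count, Clopper-Pearson for a share, the binomial split for a ratio) and cover counting error only. The counts of both CTCF-AID lists are mostly even, and if read pairs were counted more than once there, the intervals on these counts are too narrow. There was 1 library per group, so no difference below has a replicate check and none was tested.

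The outermost anchors inside the bounds lay at 149.764 and 150.294 Mb. They had ZNF143 counts of 2 and 6 at 0 h and of 5 and 8 at 24 h. The nearest anchors outside lay at 149.697 Mb, with 0 and 0, and at 150.437 Mb, with 4 and 0.

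**Figure D1:**
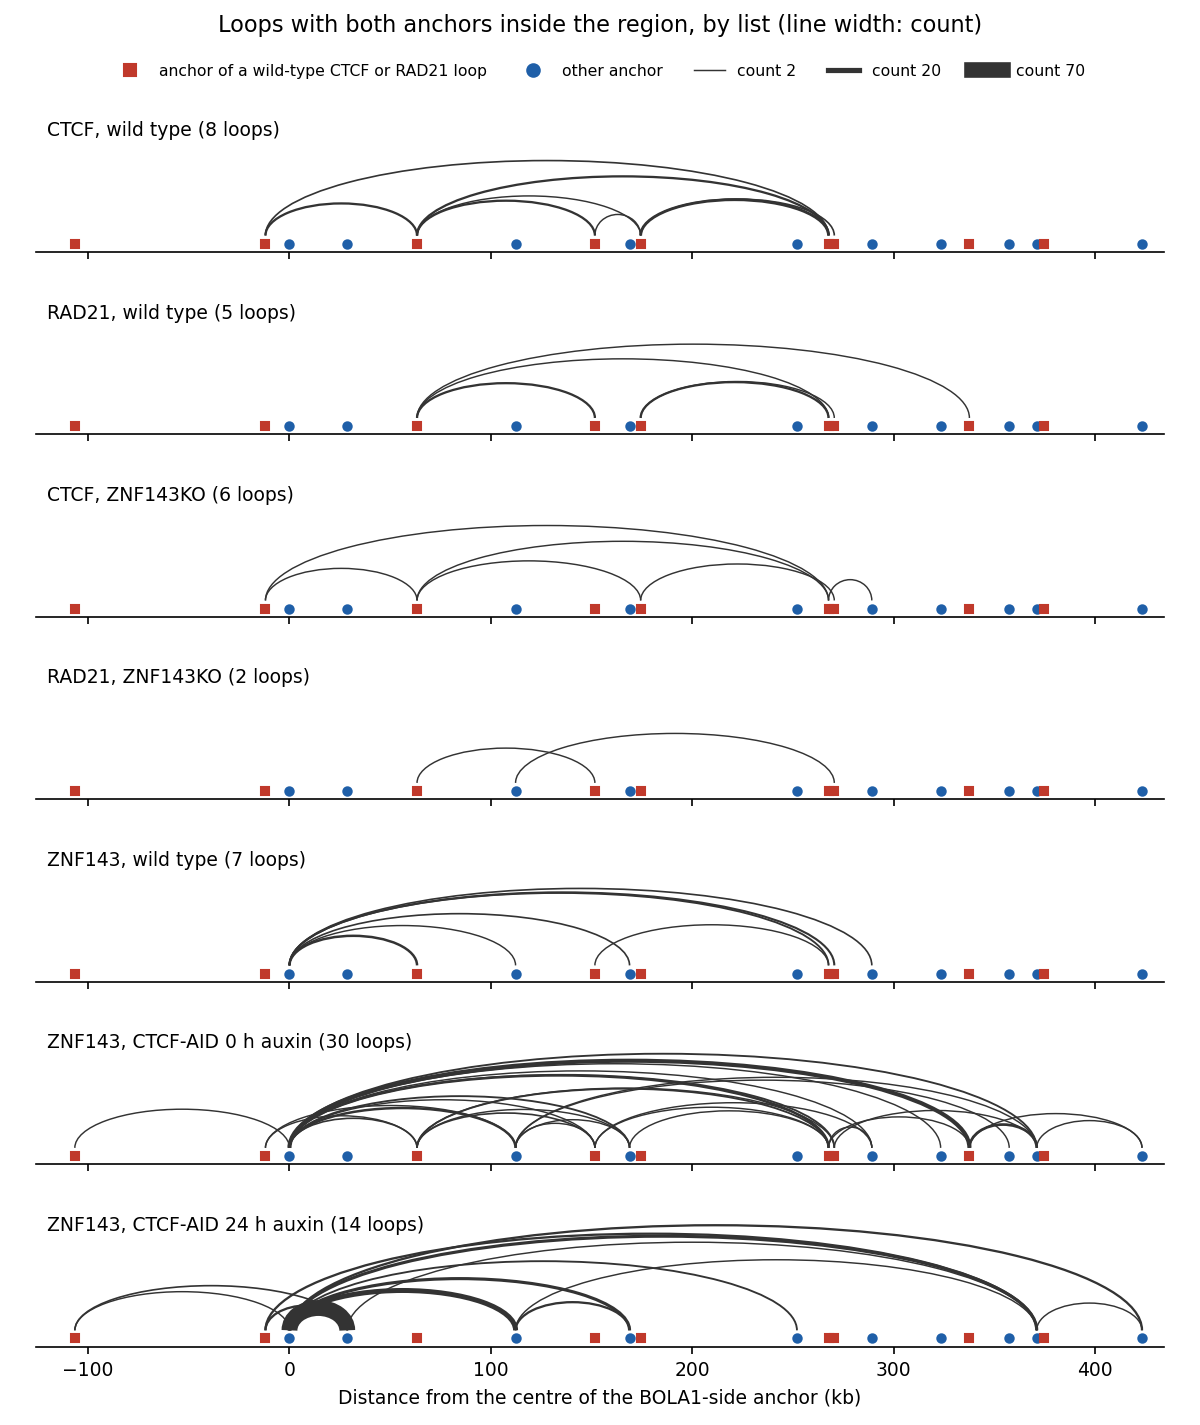
Loops with both anchors inside the region, 1 panel per list, against distance in kb from the centre of the BOLA1-side anchor. Line width is the loop's count, arc height follows its length, and squares and circles mark anchors with and without a wild-type CTCF or RAD21 loop. Wild-type CTCF and RAD21 arcs end at squares by definition, and the thick arc of 71 counts is in the 24 h panel only.

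The 19 anchors inside the region fell into 2 kinds, a split made after seeing the data. At 9 of them a wild-type CTCF or RAD21 loop ended, and these are called CTCF or RAD21 anchors. At the other 10 none did, although 3 of those 10 had a loop in a ZNF143KO list. The split rests on overlap of anchors. Of the other kind, those at 150.040 and 150.242 Mb lay within 5 kb of a CTCF or RAD21 anchor. The kind of an anchor came from the wild-type CTCF and RAD21 libraries, which the choice of the region did not use.

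The wild-type CTCF and cohesin loops formed a chain. The CTCF loop with the highest count joined 150.045 and 150.138 Mb, 93.3 kb apart, with a count of 9, and RAD21 had 6 there. From 150.045 to 150.141 Mb CTCF had 3 and RAD21 had 2. CTCF loops from 149.934 Mb to 149.859, 150.022 and 150.138 Mb had 6 counts each. RAD21 had 6 for the one to 150.022 Mb, 2 for the one to 150.138 Mb and no listed loop to 149.859 Mb. In all, 4 pairs of anchors were joined in both lists, out of 11 CTCF and 7 RAD21 loops, and 41.5% of the wild-type CTCF pairs of the genome were also joined by a RAD21 loop. Anchors at 150.045 and 150.245 Mb belonged to CTCF and RAD21 loops and, by overlap of anchors, had no loop in any ZNF143 list. ZNF143 loops did end close by, at the anchors at 150.04 and 150.242 Mb. The summed ZNF143 counts at 150.04 Mb were 3 in wild-type cells, 10 at 0 h and 16 at 24 h. At 150.242 Mb they were 2, 34 and 36. A lack of ZNF143 loops near these CTCF and RAD21 anchors is thus not shown. At 150.045 Mb the summed count was 18 in CTCF and 8 in RAD21 of wild-type cells.

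Wild-type ZNF143 loops used a different centre. Of their 9 loops, 6 started at the BOLA1-side anchor, with 24 of the 30 counts. That anchor had no loop in any of the 4 CTCF and RAD21 lists, and the nearest wild-type CTCF anchor was 10.83 kb away and the nearest RAD21 anchor 63.33 kb away. Its partners nonetheless included CTCF or RAD21 anchors: 149.934 Mb (count 7), 150.141 Mb (5) and 150.138 Mb (4). The other 3 partners were 150.040 Mb (3), 150.160 Mb (3) and 149.983 Mb (2). CTCF or RAD21 anchors thus took 66.67% of its count (44.68 to 84.37). Of the 9 wild-type ZNF143 and 11 wild-type CTCF loops, 0 joined the same pair of anchors, where 14.3% of the wild-type ZNF143 pairs of the genome were also joined by a wild-type CTCF loop. Over all lists, 5 of the 87 pairs were in both a CTCF or RAD21 list and a ZNF143 list.

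In CTCF-AID cells without auxin the BOLA1-side anchor was again the centre, with 68 counts over 19 partners. Its share of the list total, 47.51 per 100000 counts, was close to the 48.63 of wild-type cells. By summed count it stood 571st of 21084 anchors in that list and 716th of 9678 in wild-type cells. Of its 19 partners, 13 were CTCF or RAD21 anchors, with 69.12% of the count (56.74 to 79.76). The partner with most counts was 150.208 Mb, 337.6 kb away, with 15, followed by 149.983 and 150.138 Mb with 7 each. The anchor at 150.208 Mb had 38 ZNF143 counts in 7 loops at 0 h, 2 counts each in the wild-type CTCF and RAD21 lists and no loop in wild-type ZNF143.

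Between wild-type and CTCF-AID 0 h lists, 7 of the 9 wild-type loops were found again, and 2 were not, 150.228 to 150.533 Mb and 150.242 to 150.952 Mb, at counts of 2 each. Over the genome 40.4% of the wild-type ZNF143 loops were not found. Of the 55 loops at 0 h, 48 had no counterpart in wild-type cells (genome 80.6%). Those with most counts all ended at 150.208 Mb, and joined it to the BOLA1 side (15), to 150.242 Mb (8) and to 150.981 Mb (7). The 0 h list had 6.11 times as many loops here (3.00 to 14.1), against 3.37 times over the genome. With the CTCF-AID counts divided by 2, an alternative made because they are mostly even numbers, the ratio was 1. That setting drops the CTCF-AID loops of exactly 2 counts, 44 of the 55 at 0 h, and keeps those of wild-type cells. The difference in number between these lists is therefore not read further.

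After 24 h of auxin one loop stood out. It joined the BOLA1-side anchor, chr1:149869629-149872048, to the SF3B4-side anchor, chr1:149898755-149900292, 28.7 kb apart. Its count was 71 (55.45 to 89.56), or 68.96 per 100000 counts of the list, and it ranked 69th of 20587 loops. It was in 0 of the other 6 lists. The SF3B4-side anchor itself was called in the 24 h list only: the nearest anchor of the wild-type and 0 h ZNF143 lists was the BOLA1-side one, 28.68 kb off, and the nearest wild-type CTCF and RAD21 anchor was 34.65 kb off. The loop held 84.52% of the 84 counts of the SF3B4-side anchor. The rest went to 149.859 Mb (6), 149.764 Mb (3), 150.242 Mb (2) and 151.584 Mb (2). It also held 37.17% of all counts of the region at 24 h. The region's summed count was 1.24 times that at 0 h with it (0.998 to 1.54) and 0.779 times without it (0.609 to 0.996). These counts are not scaled, and the list totals had a ratio of 0.719. With the strong loop and only loops of at least 3 counts, the region's ratio was 2.41 (1.80 to 3.26).

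The BOLA1-side anchor had 140 counts over 14 partners at 24 h, or 136 per 100000, and stood 247th of 9308 anchors. Without the loop to the SF3B4 side it had 69 counts over 13 partners, or 67.02 per 100000, against 47.51 at 0 h. CTCF or RAD21 anchors took 16 of the 140 counts, 11.43% (6.68 to 17.9), and 23.19% (13.87 to 34.91) of the 69. Where anchor kinds were taken from CTCF and RAD21 loops of at least 3 counts, which leaves 150.208 Mb and others out of that kind, the shares were 41.18% at 0 h and 10% at 24 h. The count that went elsewhere was 14.67 per 100000 at 0 h and 51.48 at 24 h without the strong loop. The partner switch thus showed in the remaining loops as well as in the one the region was chosen by. These remaining loops share their anchor and both libraries with it and are no independent support.

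**Figure D2:**
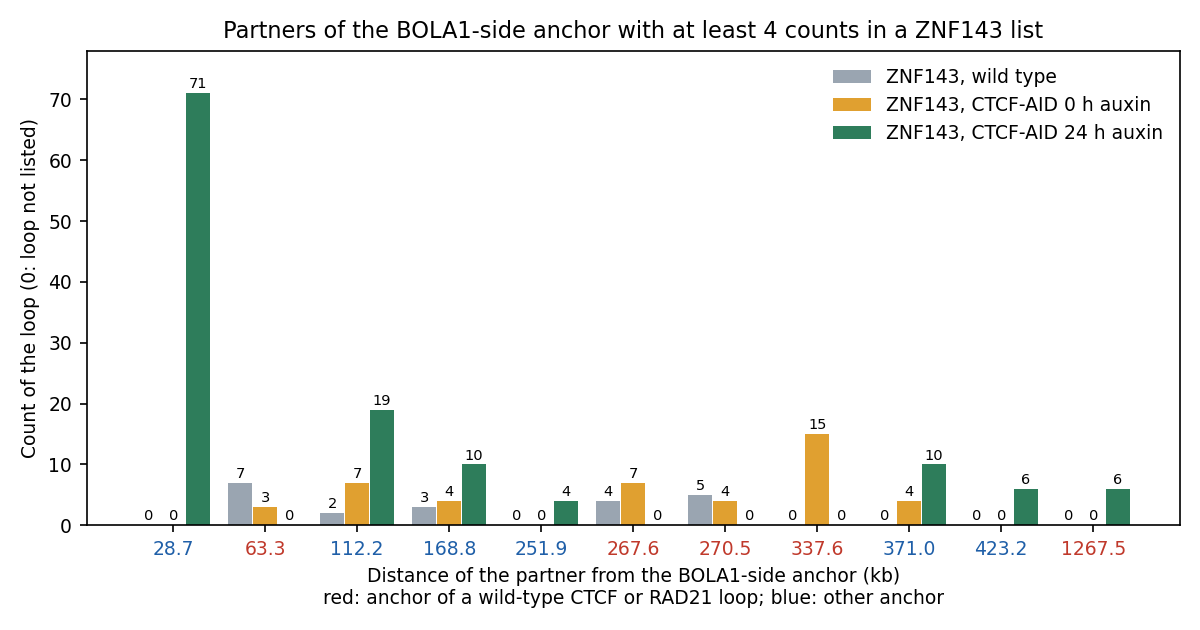
Count of each loop of the BOLA1-side anchor with at least 4 counts in a ZNF143 list, by the distance of the partner in kb, for wild-type cells and CTCF-AID cells at 0 h and 24 h. A bar of 0 is a loop that is not listed, and label colour gives the kind of partner. The 4 CTCF or RAD21 partners within 400 kb have no bar at 24 h, and the partner at 28.7 kb has one of 71 at 24 h only.

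Of the 19 partners at 0 h, 7 were still listed at 24 h and 12 were not. The 7 were 4 CTCF or RAD21 anchors (149.224, 149.764, 150.952 and 150.981 Mb), each with 2 counts at both times, and 3 others with 15 counts in sum at 0 h. The 12 were 9 CTCF or RAD21 anchors with 39 counts in sum at 0 h and 3 others (150.160, 150.194 and 150.998 Mb) with 2 each. Both kinds were thus among the partners kept and among those not listed again. At 149.934 Mb the count of the loop to the BOLA1-side anchor was 7 in wild-type cells, 3 at 0 h and not listed at 24 h. At 150.138 Mb it was 4, 7 and not listed, and at 150.141 Mb it was 5, 4 and not listed. The loop to 150.208 Mb had 15 counts at 0 h and was not listed in wild-type cells or at 24 h. All 4 of these are CTCF or RAD21 anchors. At 150.160 Mb, which is not one, the count was 3, 2 and not listed. The loop to 149.983 Mb had counts of 2, 7 and 19, and that to 150.040 Mb of 3, 4 and 10. The loop to 150.242 Mb was not listed in wild-type cells and had 4 counts at 0 h and 10 at 24 h. These 3 partners are not CTCF or RAD21 anchors by overlap. Those at 150.040 and 150.242 Mb lay within 5 kb of such anchors, at 150.045 and 150.245 Mb. For the loop to 149.983 Mb the ratio of 24 h to 0 h was 2.71 (1.09 to 7.64). For the loops to 150.040 and 150.242 Mb it was 2.5 each (0.721 to 10.9), an interval that includes 1. These are ratios of unscaled counts, and the list totals had one of 0.719. Besides the SF3B4 side, 6 partners were listed at 24 h and not at 0 h: 150.294 Mb (6), 151.138 Mb (6), 150.123 Mb (4), and 150.460, 150.522 and 151.227 Mb (2 each). Of these 6, 151.138 and 150.522 Mb are CTCF or RAD21 anchors.

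Over all loops of the region, 12 of the 55 at 0 h were found at 24 h, 21.82% (11.81 to 35.01). The 43 that were not made up 78.18%, where 75.3% of all 0 h loops of the genome were not found. Of the 30 loops at 24 h, 18 or 60% had no counterpart at 0 h, against 54.6% over the genome. The choice of the region used this contrast, so nothing is read from these shares. The lost loops with most counts were those from 150.208 Mb to the BOLA1 side (15), to 150.242 Mb (8) and to 150.981 Mb (7), and that from 150.138 Mb to the BOLA1 side (7). After the strong loop, the gained ones with most counts were tied at 6 each. They went from 149.859 Mb to the SF3B4 side and to 150.242 Mb, and from the BOLA1 side to 150.294 and 151.138 Mb. The pairs of anchors listed at both times numbered 12. Among them 5 had more counts at 24 h, 7 the same and 0 fewer. As 9 of the 12 had the lowest listed count, 2, at 0 h, they could not have fewer and still be listed. Over the genome 3783 such pairs had more, 2311 the same and 2102 fewer. The region's sum was 33 at 0 h and 63 at 24 h, a ratio of 1.91 (1.23 to 3.00). All 8196 pairs of the genome had a ratio of 1.31, and the list totals one of 0.719.

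Each kind of anchor was followed from 0 h to 24 h. Of the 7 CTCF or RAD21 anchors with a ZNF143 loop at 0 h, 5 had none at 24 h, which is 71.4% (29.04 to 96.33). The share over the genome was 65.4%. Of the 8 other anchors 3 had none, 37.5% (8.52 to 75.51), where the genome gave 58.2%, and the intervals of the 2 kinds overlap. With at least 10 counts at 0 h, 5 of 6 CTCF or RAD21 anchors had no loop at 24 h (genome 44.9%), and 0 of 4 other anchors (genome 29.2%). The 5 had held 96 counts at 0 h: 38 at 150.208 Mb, 19 at 150.138, 18 at 149.934, 11 at 150.022 and 10 at 150.141 Mb. The CTCF or RAD21 anchor that still had loops was 149.859 Mb, with 10 counts at 0 h and 14 at 24 h. The other 4 went from 68 to 140 at the BOLA1 side, from 17 to 31 at 149.983 Mb, from 10 to 16 at 150.040 Mb and from 34 to 36 at 150.242 Mb. Anchors listed at 24 h and not at 0 h were the SF3B4-side one (84 counts) and 150.123 Mb (6), and neither is a CTCF or RAD21 anchor. These shares rest on the contrast by which the region was chosen, and nothing is read from their distance to the genome.

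**Figure D3:**
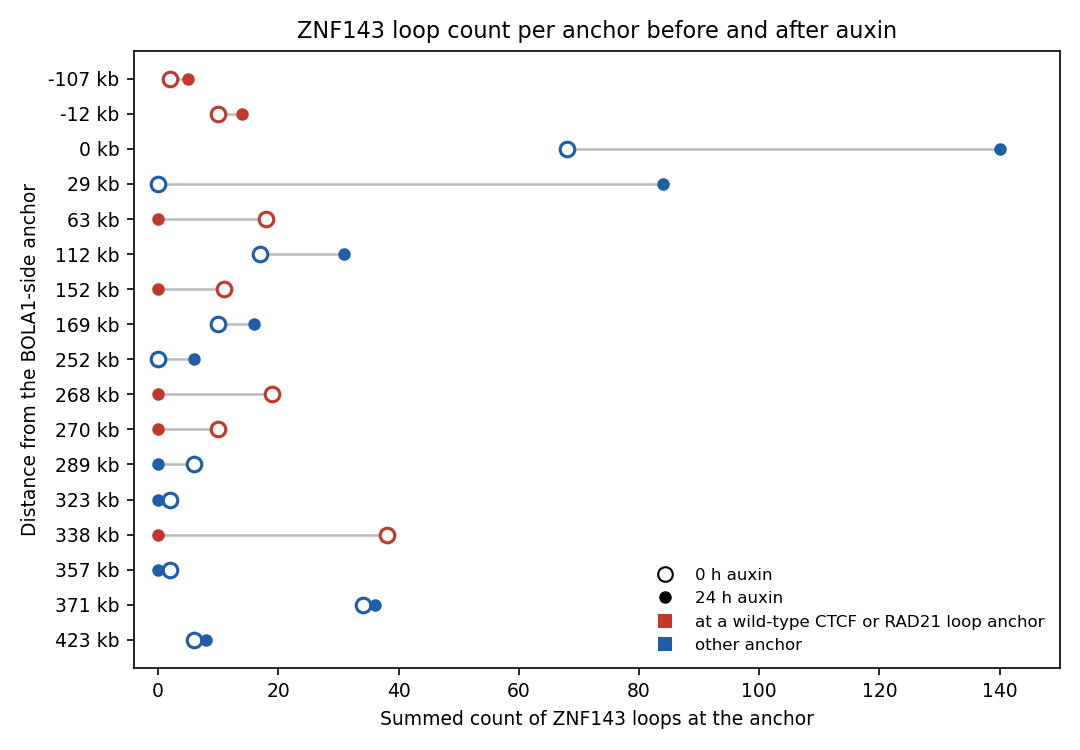
Summed ZNF143 count of each anchor of the region that had a loop in a CTCF-AID list, at 0 h (open) and 24 h (filled) of auxin, ordered by distance in kb from the BOLA1-side anchor. Colour gives the kind of anchor. The 5 CTCF or RAD21 anchors between 63 and 338 kb have counts of 10 to 38 at 0 h and 0 at 24 h, and the anchors at 0 and 29 kb reach 140 and 84 at 24 h.

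Read by loops, those with neither end at a CTCF or RAD21 anchor had 26.67% of the region's count in wild-type cells, 22.73% (35 of 154) at 0 h and 74.35% (142 of 191) at 24 h. Without the strong loop the last was 59.17% (71 of 120). The genome gave 24.7%, 28.41% and 40.36%. With ZNF143 loops of at least 3 counts the region's shares were 22.73% at 0 h and 81.76% at 24 h. Where anchor kinds were taken from CTCF and RAD21 loops of at least 3 counts, which changes the kind of 150.208 Mb and other anchors with loops of 2 counts, the shares were 45.45% and 76.44%. With both minima they were 57.58% and 81.76%, and with anchor kinds from any of the 4 CTCF and RAD21 lists 11.69% and 60.21%.

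Anchors that are not CTCF or RAD21 anchors and had at least 10 counts at both times could be followed singly. The share of their count that went to CTCF or RAD21 anchors was lower at 24 h at all 4 of them. It was 69.12% at 0 h and 11.43% at 24 h for the BOLA1 side, 23.53% and 12.9% at 149.983 Mb, 40% and 0% at 150.040 Mb, and 58.82% and 38.89% at 150.242 Mb. Over the 1723 such anchors of the genome 62.3% had a lower share at 24 h, and the medians were 42.86% and 34.48%. The 24 h share of the BOLA1 side includes the loop by which the region was chosen and was 23.19% without it, and nothing is read from its place among these anchors. The partners of 1 anchor in the region are often the other 3, so the 4 values are not independent.

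**Figure D4:**
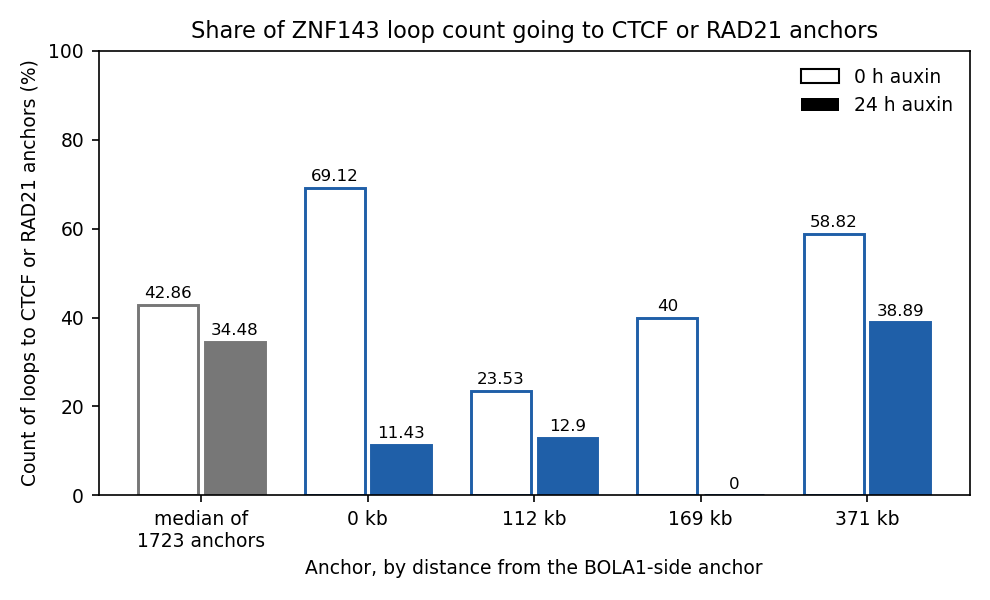
Share of ZNF143 loop count (%) that goes to CTCF or RAD21 anchors at 0 h (open bars) and 24 h (filled bars) of auxin, for the 4 other anchors of the region with at least 10 counts at both times, named by distance from the BOLA1-side anchor. The grey bars are the medians of 1723 such anchors of the genome, 42.86% and 34.48%. All 4 anchors are lower at 24 h, and the anchor at 169 kb has 0%.

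The partner with the highest count changed at 3 of the 5 anchors that had at least 10 counts at both times, where the genome gave 54.8%. At the BOLA1 side it changed from 150.208 Mb to the SF3B4 side. At 150.242 Mb it changed from 150.208 Mb, with 8 counts at 0 h and no listed loop at 24 h, to the BOLA1 side, with 4 and 10. At 149.859 Mb first place was tied at both times, between 5 partners of 2 counts each at 0 h and between the SF3B4 side and 150.242 Mb, with 6 each, at 24 h. Neither of the latter was among the 5. Ties went to the lower position, here and over the genome. At 149.983 and 150.040 Mb the leading partner was the BOLA1 side at both times, with 7 and 19 counts and with 4 and 10. At 24 h the leading partner was thus the BOLA1 side for 3 of these 5 anchors, and the SF3B4 side for the BOLA1 side itself.

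ZNF143 deletion was compared with wild type in the CTCF and RAD21 libraries, which the choice of the region did not use. Every loop of the region in ZNF143KO cells had the lowest listed count, 2. For CTCF the summed count was 43 in wild-type and 12 in ZNF143KO cells, a ratio of 0.279 (0.134 to 0.539), where the list totals had a ratio of 0.573. The number of loops had a ratio of 0.546 (0.166 to 1.61), an interval that includes 1 and the ratio of the genome, 0.808. Of the 11 CTCF loops 6 were found in ZNF143KO cells and 5 were not, 45.45% (genome 60.9%). Those lost with most counts, ties going to the shorter span, were 149.934 to 150.022 Mb (6), 150.022 to 150.045 Mb (2) and 150.245 to 150.533 Mb (2). Loops from 149.934 Mb to 149.859, 150.045 and 150.138 Mb were listed in both. Of the 6 loops in ZNF143KO cells 1 had no wild-type counterpart, 150.138 to 150.160 Mb (genome 52.9%).

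For RAD21 the summed count was 24 in wild-type and 6 in ZNF143KO cells, a ratio of 0.25 (0.0836 to 0.628), against 0.45 for the list totals. The 7 and 3 loops gave a ratio of 0.429 (0.0715 to 1.88), and that of the genome was 0.644. The loop from 149.934 to 150.022 Mb was the one found again, with 6 counts in wild-type and 2 in ZNF143KO cells. Of the 7 loops 6 were not found (genome 65.9%). With ties going to the shorter span, they were led by 150.045 to 150.138 Mb (6), 149.224 to 149.764 Mb (4) and 150.045 to 150.141 Mb (2). The 2 of 3 loops without a wild-type counterpart (genome 49.1%) joined 149.983 to 150.141 Mb and 150.228 to 150.533 Mb. The loop with most CTCF counts, 150.045 to 150.138 Mb, had 9 in wild-type cells and was not listed as that pair of anchors in ZNF143KO cells. It was counted as found because a CTCF loop from 150.045 to 150.141 Mb, within the 5 kb extension, was listed there with 2 counts. The file layout of the lists also changed with genotype in both comparisons, so a difference in how the lists were made and the deletion cannot be told apart.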

How the data were processed

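HiChIP loops were taken from 7 lists, 1 per library, with groups from the sample titles. The counts are those the authors deposited: whole numbers of at least 2 per pair of anchors, taken as supporting read pairs and not scaled to a common total. HiC-Pro and hg19 are named in the submitters' processing notes, without a version. The loop caller, aligner, filters and library depths are not given in the sources used here. The counts of both CTCF-AID lists are mostly even, so they may be on another scale than the rest, and comparisons across them are limited by this. Coordinates are given counted from 1.

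Loops were analysed with Python 3.11.15, pandas 2.3.3, numpy 2.4.6 and scipy 1.17.1, and figures were drawn with matplotlib 3.10.9. Anchors of all 7 lists that overlapped by at least 1 bp were merged. A loop was matched to a second list where a loop of that list overlapped both anchors, extended by 5 kb. Genome-wide shares used the same steps, which were tested on simulated loops. The loops named are the 5 of each list with the highest count, the 3 lost and 3 gained of each pair with the highest count (ties to the shorter span), and the partners of the strong loop's anchors with at least 4 counts. Others named, at the SF3B4 side and in the comparison of kinds of anchors, were chosen after their values were seen. The members, lists of genes and comparisons were chosen with earlier results of these data known. Alternatives were the minimum count, membership by both anchors, the extension, the merging distance, the scale of the CTCF-AID counts and the definition of a CTCF or RAD21 anchor.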

Additional observations from a re-analysis of the deposited data

How the results depend on the processing

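Of 55 alternative values, 27 moved by less than counting error, 26 by more and 2 turned in direction, judged against 1. From 0 h to 24 h the ratio of loop numbers over the genome was 0.5095, and that of the list totals was 0.7194. In the region the ratio of loop numbers turned from 0.5455 to 1.273 with loops of at least 3 counts. The region's count ratio turned from 1.24 to 0.7792 without the strong loop, while it was 2.409 with at least 3 counts. Among these, the definitions of a CTCF or RAD21 anchor, its merging within 2 kb, the minima of 3 counts and the omission of the strong loop were chosen after seeing the data for the shares by kind of anchor, as were all alternatives of the region's count ratio. The share of count away from CTCF or RAD21 anchors at 0 h was 11.69% with any of the 4 CTCF and RAD21 lists, 13.64% with merging within 2 kb, 45.45% with anchor kinds from CTCF and RAD21 loops of at least 3 counts, which takes 150.208 Mb and others out of that kind, and 57.58% with that and ZNF143 loops of at least 3 counts. At 24 h it was 60.21%, 61.78%, 76.44% and 81.76%, again 81.76% with ZNF143 loops of at least 3 counts alone (22.73% at 0 h), 86.39% with wild-type CTCF alone and 59.17% without the strong loop. The BOLA1-side anchor's share at CTCF or RAD21 anchors became 85.29% (4 lists), 41.18% (anchor kinds from at least 3 counts) and 31.82% (both minima) at 0 h. At 24 h it became 25%, 10% and 4.762%, again 4.762% with ZNF143 loops of at least 3 counts alone (65.91% at 0 h), and 4.286% (CTCF alone), 20% (2 kb) and 23.19% (without the strong loop). In each of these settings the first share was higher at 24 h than at 0 h and the second lower. The loop number ratio from wild type to 0 h was 2.2 with at least 3 counts and 1 with the CTCF-AID counts divided by 2. The share of wild-type ZNF143 loops found at 0 h was 100% with at least 3 counts and 100% with both anchors inside, and that of CTCF loops found in ZNF143KO cells was 83.33% with at least 3 counts. With at least 20 counts, the leading partner changed at 100% of the 2 anchors left. The cause of these differences was not tested. The share of loops between promoters was not run, since no hg19 annotation was used, nor was the ratio for ZNF143KO cells with at least 3 counts, since no loop was left there. No replicate could be left out with 1 library per group. Most loops here rest on 2 to 4 counts, so single gains and losses are not firm at this depth.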
